A study of Homo sapiens with 12 samples.

Results

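The TRIM family of ubiquitin ligase genes was described in BT-549 cells in which annexin A6 (AnxA6) had been down-regulated by shRNA. Members were the genes whose symbol is TRIM followed by a number and at most 1 letter, with pseudogenes left out and the transcript cluster of highest mean kept per gene. This gave 60 genes of the 14884 genes with a symbol on the array. They were found on 92 transcript clusters, since TRIM10, TRIM15, TRIM27, TRIM31 and TRIM40, all on chromosome 6, had more than 1. A further 13 of 73 protein-coding TRIM genes of this form were not analysed here.

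The cells, BT-549, are a triple-negative human breast cancer line of mesenchymal-like form. The study asked which genes respond when AnxA6, a calcium-dependent membrane-binding protein, is depleted. All 3 lines were stably transfected sub-clones of BT-549: BT-EV, the control, which carried the empty vector and which the labels call control shRNA, BT-A6sh5, which carried shRNA-5 against annexin A6, and BT-A6sh2, which carried shRNA-2. Each line was profiled on 4 Affymetrix Human Gene 2.0 ST arrays, and values are on the log2 scale of RMA, so that a difference of 1 is 2-fold. Each line is a single transfected population, and an effect of the shRNA target cannot be told apart from other differences between the lines. The titles call the 4 arrays biological replicas and the study's text on clustering calls them technical replicates, so that p-values measure the spread between these arrays.

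TRIM proteins share a tripartite motif, made of a RING finger that recruits a ubiquitin-loaded E2 enzyme, B-box zinc fingers, and a coiled coil through which they pair. The domain after this motif chooses the substrate and sorts the family into classes, of which the PRY-SPRY class (C-IV) is the largest. Many PRY-SPRY members are induced by interferon and take part in antiviral defence, while members with a PHD finger and bromodomain (C-VI) act on chromatin, and those with a COS box (C-I and C-II) bind microtubules. Of the 60 genes, 31 were of class C-IV, 7 of C-V with no further domain, 4 of C-I, 3 of C-VI, 3 of C-VII with NHL repeats, and 5 lacked a RING.

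The arrays carried 53617 transcript clusters. ANXA6, the targeted gene, had a mean of 11.41 ± 0.026 in BT-EV (SD, n = 4). It fell by 2.63 to 8.78 ± 0.096 in BT-A6sh5 (limma adjusted p = 2.21e-09), and BT-A6sh2 kept more of it, at 10.45 ± 0.11 after a fall by 0.96 (adjusted p = 0.000158). The 6 measured mesenchymal markers lay between 6.38 (TWIST1) and 12.35 (FN1) in BT-EV, and the 8 epithelial and luminal markers between 3.47 (EPCAM) and 7.10 (KRT18), so that the ranges overlapped. SNAI2, a mesenchymal transcription factor, fell by 1.23 in BT-A6sh5 (adjusted p = 4.93e-07), while FN1 and KRT18 fell in BT-A6sh2 by 0.43 and 0.53 (adjusted p = 0.00757 and 0.0477), and the part of these markers in the results was not tested. BT-A6sh2 arrays varied most: the residual standard deviation was 0.447 there, 0.272 in BT-A6sh5 and 0.196 in BT-EV. Replicates 1 and 3 of BT-A6sh2 also had more compressed values, since their transcript clusters spread with an SD of 2.18 and 2.19, while this SD was 2.26 or more, up to 2.33, elsewhere. The description of BT-A6sh2 replicate 1 names shRNA-5, while its title and transfectant label name shRNA-2, and it was kept in BT-A6sh2. Its ANXA6 value of 10.57 lay near the 10.32, 10.50 and 10.41 of the other BT-A6sh2 arrays and above the 8.69 to 8.89 of BT-A6sh5.

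Down-regulation of AnxA6 in BT-A6sh5 was accompanied by higher values of 5 TRIM genes and lower values of 9. TRIM68, TRIM9, TRIM16, TRIM62 and TRIM2 rose, and TRIM5, TRIM38, TRIM4, TRIM36, TRIM14, TRIM8, TRIM32, TRIM28 and TRIM26 fell. These 14 genes were 23.3% of the family. The arrays measured RNA of whole cultures, in which fewer cells expressing a gene and less RNA per cell cannot be told apart. The same test called 10.8% of all transcript clusters and 19.0% of the genes with a symbol, and by direction 6.30% of those genes were higher and 12.7% lower. The median difference of the family was 0.01, beside 0.05 over all transcript clusters and 0.01 over the genes with a symbol. The family as a whole thus did not lie on one side of 0. All 14 had their 4 BT-A6sh5 arrays wholly above or wholly below the 4 BT-EV arrays. Another 11 genes also had separate arrays without passing the test, which makes 25 of 60, against 23.6% of all transcript clusters and 36.3% of the genes with a symbol.

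In BT-A6sh2, 0 of the 60 TRIM genes passed the test by limma in either direction, while 8.49% of all transcript clusters and 9.92% of the genes with a symbol did. At an unadjusted p under 0.05 there were 17 TRIM genes, 7 higher and 10 lower, against 27.7% of all transcript clusters. The lowest adjusted p was that of TRIM52, 0.0561, with a difference of 0.43. Under the other settings tried, 0 to 4 TRIM genes were higher and 0 to 3 were lower. The share of transcript clusters called in BT-A6sh2 also moved with the setting, from 2.77% to 17.0%. The arrays of 11 genes stood apart from BT-EV, 6 higher and 5 lower, against 18.4% of all transcript clusters and 23.3% of the genes with a symbol. The difference between the 2 knockdown lines, tested in the same model, was larger than the array spread for 21 TRIM genes (35.0%), of which 8 were higher and 13 lower in BT-A6sh5. That comparison called 19.5% of all transcript clusters and 28.6% of the genes with a symbol (11.3% higher and 17.3% lower). Both knockdown lines were compared with the same 4 BT-EV arrays.

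**Figure D1:**
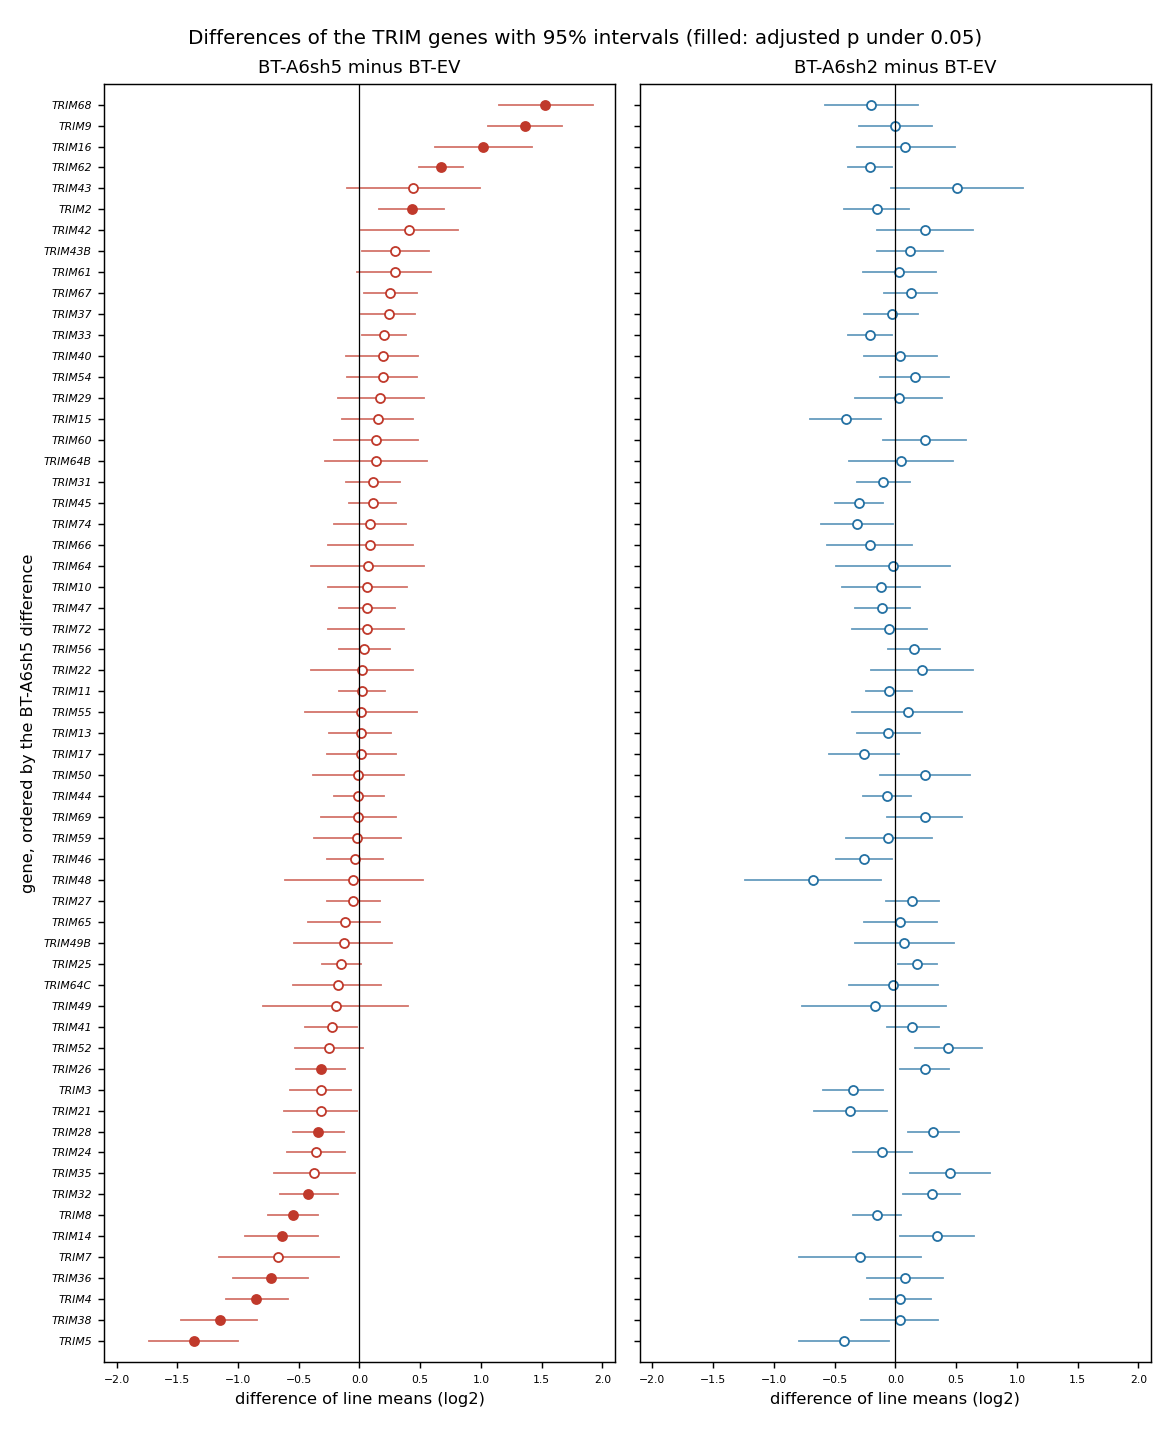
Each of the 60 TRIM genes is a row, and the x axis is the difference of line means on the log2 scale for BT-A6sh5 minus BT-EV (left) and BT-A6sh2 minus BT-EV (right), with lines for the 95% interval and filled points for an adjusted p under 0.05. Filled points run from -1.36 (TRIM5) to 1.53 (TRIM68) on the left, and there are 0 on the right.

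Calls were made among the members with higher signal. Of 25 TRIM genes whose BT-EV mean lay above 6.75, the 75th percentile of all transcript clusters, 10 passed the test in BT-A6sh5 (40.0%), where 33.0% of the genes with a symbol in that range did. Of 19 genes between the median of 4.98 and that percentile, 4 passed (21.1%), where 13.3% of such genes did. Of the 16 at or below the median, 0 passed by limma, 2 had an unadjusted p under 0.05, and 3.17% of such genes were called. These 16 include TRIM22, TRIM29, TRIM42, TRIM43, TRIM48, TRIM49, TRIM55, TRIM59, TRIM60 and TRIM64, whose BT-EV means lay between 2.84 and 4.27, in the range of the lower transcript clusters (25th percentile 3.65). Signals of different transcript clusters depend on their probes and do not order the genes by transcript number.

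The antiviral members were examined first. Of 9 genes listed as linked to interferon, 8 were measured. Of these, 3 fell in BT-A6sh5 (TRIM5, TRIM14 and TRIM38, 37.5%) and 0 rose by limma, with 4 at an unadjusted p under 0.05. Among the genes with a symbol 12.7% were lower and 6.30% higher. TRIM14, TRIM21, TRIM25, TRIM38 and TRIM56 had BT-EV means above 6.75, where 33.0% of the genes with a symbol were called in BT-A6sh5. The median difference of the 8 was -0.23, against 0.05 over all transcript clusters and 0.01 over the genes with a symbol. In BT-A6sh2 their median was 0.17, and 0 passed the test, with 4 at an unadjusted p under 0.05, beside 9.92% of the genes with a symbol that passed.

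TRIM5, which binds the capsid of incoming retroviruses and is best known from the block to HIV in rhesus macaque cells, had the largest fall of the family. Its values were 5.92, 5.90, 5.87 and 5.94 in BT-EV, 4.80, 4.31, 4.65 and 4.41 in BT-A6sh5, and 4.97, 5.82, 5.62 and 5.53 in BT-A6sh2. The 3 lines did not overlap, with BT-A6sh5 lowest and BT-A6sh2 between it and BT-EV. The difference was -1.36 (SE 0.168, adjusted p = 0.000212) in BT-A6sh5, which left 38.8% of the BT-EV signal. In BT-A6sh2 it was -0.42 with a 95% interval from -0.79 to -0.05 and did not pass (adjusted p = 0.132). The lines themselves differed by -0.95 (adjusted p = 0.00218). The BT-A6sh5 mean of 4.54 was at percentile 40.8 of all transcript clusters and was not shown to be above background.

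TRIM38, a ligase described as a brake on Toll-like receptor and interferon signalling, was at 7.03, 7.14, 6.96 and 6.89 in BT-EV and at 5.72, 6.07, 5.82 and 5.80 in BT-A6sh5. BT-A6sh2 gave 7.17, 6.91, 6.70 and 7.38, on both sides of the control arrays. TRIM38 fell by 1.15 in BT-A6sh5 (SE 0.142, adjusted p = 0.000216), while its BT-A6sh2 difference was 0.04 with an interval from -0.28 to 0.35. BT-A6sh5 minus BT-A6sh2 was -1.19 (adjusted p = 0.000139).

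TRIM14 has no RING and works as an adaptor of the RIG-I and MAVS pathway on mitochondria. It was at 6.63, 6.62, 6.92 and 6.88 in BT-EV, at 6.11, 5.84, 6.49 and 6.04 in BT-A6sh5 and at 7.07, 7.04, 7.03 and 7.28 in BT-A6sh2. Its BT-A6sh5 arrays were all below and its BT-A6sh2 arrays all above the control. It fell by 0.64 in BT-A6sh5 (SE 0.138, adjusted p = 0.00961), and its BT-A6sh2 value of 0.34 did not pass (adjusted p = 0.133). The lines differed by -0.98 (adjusted p = 0.000436).

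The other interferon-linked members did not pass the test in either line. TRIM21, the cytosolic antibody receptor, was lower with separate arrays in both, with differences from BT-EV of -0.32 with shRNA-5 (adjusted p = 0.212) and -0.37 with shRNA-2 (adjusted p = 0.110). TRIM25, which ubiquitinates RIG-I, was at -0.15 and 0.18, again with separate arrays in both lines, and its values of 10.16 to 10.29 in BT-EV were among the highest signals of the family. TRIM25 was 0.33 lower in BT-A6sh5 than in BT-A6sh2 (-0.33, adjusted p = 0.0084). TRIM22, an interferon-induced neighbour of TRIM5 on chromosome 11, had BT-EV values of 3.68, 3.55, 3.35 and 3.38, and its differences of 0.02 and 0.22 lay within the array spread. TRIM56 and TRIM69 were at 0.04 and -0.01 in BT-A6sh5. TRIM4, another class C-IV ligase that acts on RIG-I and that was not on the list, was at 8.161, 8.043, 8.003 and 8.213 in BT-EV, 7.383, 7.472, 6.971 and 7.201 in BT-A6sh5, and 8.260, 8.012, 8.176 and 8.133 in BT-A6sh2. It fell by 0.85 (SE 0.116, adjusted p = 0.000464), with BT-A6sh2 at 0.04 and a difference between lines of -0.89 (adjusted p = 0.000257).

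Interferon acts through the interferon-stimulated response element in the promoters of its target genes, so the bases before the start of the members were read from RefSeq (GRCh38.p14). Windows of 250 bases before to 50 after a start were held for 45 of the 60 genes, and for 11 of the 14 that passed in BT-A6sh5. Some genes had several starts, with 35116 windows for 27305 genes, and a gene counted as matched if any of its windows matched. The core of this element, GAAA followed after any 2 bases by another GAAA and searched on both strands, was in 9 of 45 TRIM genes, beside 1195 of 27305 genes (4.38%). Of these 9, TRIM5, TRIM14 and TRIM26 fell and TRIM16 and TRIM2 rose in BT-A6sh5, and TRIM21, TRIM44, TRIM64C and TRIM69 did not pass. Among the 36 TRIM genes with windows but no match, 3 fell and 3 rose. The gamma-activated site, TTC and GAA with any 3 bases between them, was in 11 of 45 (24.4%), beside 9.38% of genes. Of those 11, TRIM16 and TRIM2 rose and 0 fell, and among the 34 TRIM genes with windows but without this site, 6 fell and 3 rose. The 11 matched genes include the close copies TRIM49 and TRIM49B, and TRIM64 and TRIM64B, which both match at -209 to -201. Such copies are not separate observations, and whether the share of either motif exceeds that of all genes was not tested. The 250 bases before the start are printed for TRIM5, TRIM14 and TRIM26, which fell and hold a match, for TRIM38, which fell and holds none, and for TRIM16 and TRIM68, which rose, the former with a match and the latter without. Each reads 5′ to 3′ toward the gene's start, and capitals mark the core on either strand, at -27 to -18 in TRIM5, -26 to -17 in TRIM14 and -80 to -71 in TRIM16. In TRIM26, 2 cores at -194 to -185 and -188 to -179 overlap. Where a gene had several windows, a window with a core before the start was preferred for printing, and which start these cells use was not tested. A match is a description of these letters and not a measured site.
TRIM5 (chr11:5685075-5685324, minus strand): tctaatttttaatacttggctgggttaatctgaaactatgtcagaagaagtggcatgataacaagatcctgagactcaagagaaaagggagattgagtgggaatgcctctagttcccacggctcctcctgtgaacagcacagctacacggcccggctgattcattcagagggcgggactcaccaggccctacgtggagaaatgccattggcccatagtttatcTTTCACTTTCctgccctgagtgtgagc
TRIM14 (chr9:98119223-98119472, minus strand): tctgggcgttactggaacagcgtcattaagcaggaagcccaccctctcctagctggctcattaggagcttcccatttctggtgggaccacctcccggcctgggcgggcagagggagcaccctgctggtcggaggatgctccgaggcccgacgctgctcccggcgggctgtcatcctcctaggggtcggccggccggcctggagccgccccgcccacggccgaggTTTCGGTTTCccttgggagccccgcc
TRIM26 (chr6:30213407-30213656, minus strand): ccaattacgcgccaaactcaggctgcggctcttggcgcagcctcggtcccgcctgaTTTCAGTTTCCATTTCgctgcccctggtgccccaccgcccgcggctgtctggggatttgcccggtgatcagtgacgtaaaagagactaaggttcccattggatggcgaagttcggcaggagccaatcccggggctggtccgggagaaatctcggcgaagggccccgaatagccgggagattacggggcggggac
TRIM38 (chr6:25962552-25962801, plus strand): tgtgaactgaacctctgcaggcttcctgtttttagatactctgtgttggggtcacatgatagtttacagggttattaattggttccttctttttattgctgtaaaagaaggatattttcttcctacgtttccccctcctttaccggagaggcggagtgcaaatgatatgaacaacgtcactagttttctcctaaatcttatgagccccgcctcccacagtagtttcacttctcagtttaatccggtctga
TRIM16 (chr17:15682952-15683201, minus strand): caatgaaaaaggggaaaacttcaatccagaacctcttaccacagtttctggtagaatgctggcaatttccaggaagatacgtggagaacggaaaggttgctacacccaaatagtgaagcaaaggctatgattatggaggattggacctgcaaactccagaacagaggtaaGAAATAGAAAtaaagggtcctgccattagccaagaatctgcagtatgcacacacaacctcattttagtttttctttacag
TRIM68 (chr11:4608232-4608481, minus strand): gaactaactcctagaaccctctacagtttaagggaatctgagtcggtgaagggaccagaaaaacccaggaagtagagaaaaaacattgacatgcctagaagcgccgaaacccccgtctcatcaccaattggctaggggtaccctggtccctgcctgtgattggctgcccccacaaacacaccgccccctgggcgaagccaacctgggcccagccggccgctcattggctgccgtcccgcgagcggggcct

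TRIM5 stands among TRIM6, TRIM34 and TRIM22 on chromosome 11. TRIM6 and TRIM34 were not measured under their own symbols, but a transcript cluster named for their readthrough, TRIM6-TRIM34, was on the array. It is outside the membership rule and was chosen after its values were seen. It gave 6.51, 6.29, 6.28 and 6.38 in BT-EV, 4.89, 4.68, 4.55 and 4.81 in BT-A6sh5, and 5.32, 6.04, 5.32 and 5.77 in BT-A6sh2, so that the lines did not overlap and lay in the order seen for TRIM5. Its fall passed the test in both lines, by 1.63 (adjusted p = 3.31e-05) with shRNA-5 and by 0.75 (adjusted p = 0.0177) with shRNA-2. RefSeq places this locus inside the span of TRIM5 on the opposite strand, and whether probes of the 2 transcript clusters share signal was not tested.

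Among the microtubule-binding members with a COS box, TRIM9 and TRIM36 moved in opposite directions. TRIM9, a ligase best known from neurons, was at 6.69, 6.80, 6.96 and 6.97 in BT-EV, 8.16, 8.29, 8.35 and 8.06 in BT-A6sh5, and 7.16, 6.49, 6.92 and 6.82 in BT-A6sh2. It rose 2.58-fold in BT-A6sh5 (difference 1.36, SE 0.137, adjusted p = 4.54e-05), the lowest adjusted p of the family, while BT-A6sh2 overlapped the control (interval -0.30 to 0.30). TRIM36, which associates with the cytoskeleton, was at 5.79, 5.67, 5.75 and 5.67 in BT-EV, 5.06, 5.15, 4.88 and 4.88 in BT-A6sh5, and 5.39, 5.72, 5.98 and 6.10 in BT-A6sh2. All BT-A6sh5 arrays were lowest, and it fell by 0.73 (SE 0.141, adjusted p = 0.00495), with BT-A6sh2 at 0.08. TRIM67, the neuronal relative of TRIM9, was at 0.25 in BT-A6sh5 and TRIM46, which organizes axonal microtubules, at -0.04, and neither passed (adjusted p = 0.156 and 0.893). The muscle members TRIM54, TRIM55 and TRIM72 were at 0.19, 0.01 and 0.06.

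The largest rise of the family was in the PRY-SPRY class. TRIM68, described as a ligase that binds the androgen receptor, was at 5.03, 5.03, 4.57 and 5.33 in BT-EV, 6.77, 6.70, 6.48 and 6.16 in BT-A6sh5, and 4.53, 4.87, 4.87 and 4.91 in BT-A6sh2. BT-A6sh5 was above both other lines on every array, and BT-A6sh2 overlapped the control. TRIM68 rose 2.90-fold in BT-A6sh5 (difference 1.53, SE 0.176, adjusted p = 0.000123), and its value in BT-A6sh2 was -0.20 (interval -0.58 to 0.19). Its BT-EV mean of 4.99 was at percentile 49.9 of all transcript clusters and was not shown to be above background. TRIM62, a regulator of epithelial polarity also called DEAR1, rose with the tightest values, 7.228, 7.361, 7.419 and 7.284 in BT-EV against 4 values between 7.962 and 8.016 in BT-A6sh5. Its BT-A6sh2 values of 7.059, 7.152, 7.234 and 7.002 reached the lower end of the control. It rose by 0.67 (SE 0.0829, adjusted p = 0.000214), while its BT-A6sh2 value of -0.21 did not pass (adjusted p = 0.126), and the lines differed by 0.88 (adjusted p = 2.15e-05).

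TRIM16, a member without a RING that takes part in the autophagy of damaged endomembranes, also rose. It was at 5.15, 5.38, 5.10 and 5.48 in BT-EV, 5.86, 6.41, 6.50 and 6.42 in BT-A6sh5 and 5.12, 5.07, 5.50 and 5.76 in BT-A6sh2. Replicate 1 of BT-A6sh5 was nearest the control but still above it. The difference was 1.02 in BT-A6sh5 (SE 0.184, adjusted p = 0.00307) and 0.08 in BT-A6sh2 (interval -0.32 to 0.49). TRIM16 has a near-identical relative, TRIM16L, which was not analysed here, and the TRIM43, TRIM49 and TRIM64 genes are also close copies of each other, so their values are uncertain.

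In class C-IV as a whole, 2 of 31 genes rose and 4 fell in BT-A6sh5, which was 19.4% of the class, close to the 19.0% of the genes with a symbol. TRIM26 fell by 0.32, from 7.66, 7.61, 7.56 and 7.50 to 7.43, 7.31, 7.15 and 7.17 (adjusted p = 0.0457), and was at 7.93, 7.87, 7.71 and 7.79 in BT-A6sh2. The calls of TRIM26, TRIM28, TRIM32 and TRIM2 were lost under some of the 21 settings, while the other 10 passed in each. TRIM7 had a larger estimate of -0.67 but did not pass (adjusted p = 0.0952), and TRIM35 was at -0.37 in BT-A6sh5 and 0.45 in BT-A6sh2, with a difference between lines of -0.82 (adjusted p = 0.00275). Among the genes with more than 1 transcript cluster, TRIM27, which promotes endosomal actin assembly, was at -0.05 and 0.14 on its highest row. Of its 8 rows, 1 passed in BT-A6sh2 (adjusted p = 0.0386) and 6 differed between the lines, where the highest row did not (-0.19, adjusted p = 0.210). All 8 rows of TRIM15 were higher in BT-A6sh5 than in BT-A6sh2, by 0.53 to 0.59. Rows of the same gene are not separate observations. TRIM10, TRIM31 and TRIM40 had 0 rows past the threshold in any of the 3 comparisons by limma.

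**Figure D2:**
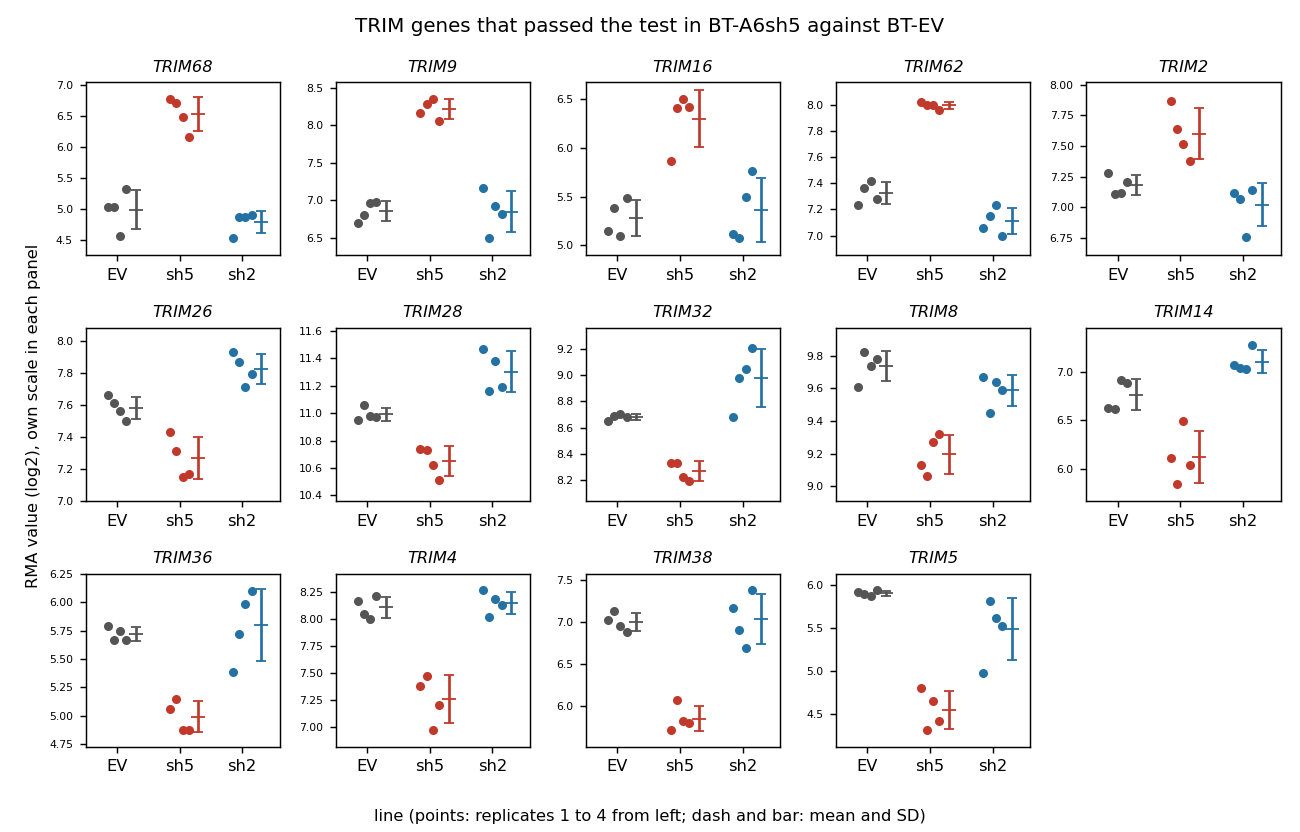
RMA values (log2, own scale in each panel) of the 14 TRIM genes that passed the test in BT-A6sh5, with 1 point per array in BT-EV, BT-A6sh5 and BT-A6sh2 and a dash and bar for the mean and SD. The BT-A6sh5 points lie above all BT-EV points in the first 5 panels (TRIM68 to TRIM2) and below them in the other 9, while BT-A6sh2 points overlap BT-EV in 10 of the 14 panels.

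The chromatin members of class C-VI gave smaller differences at high signal. TRIM28, the corepressor that KRAB zinc finger proteins bring to chromatin, was at 10.95, 11.06, 10.98 and 10.97 in BT-EV, 10.74, 10.73, 10.62 and 10.51 in BT-A6sh5 and 11.47, 11.16, 11.38 and 11.19 in BT-A6sh2. It fell by 0.34 in BT-A6sh5 (SE 0.0955, adjusted p = 0.0403), and its BT-A6sh2 value of 0.31 did not pass (adjusted p = 0.0666). Although both were small, the 3 lines did not overlap, and the difference between the knockdown lines was -0.65 (adjusted p = 0.000619). TRIM33, a ligase of SMAD4, lay in the reverse order, at 10.15, 10.11, 10.17 and 10.15 in BT-EV, 10.48, 10.32, 10.33 and 10.24 in BT-A6sh5 and 9.92, 9.84, 9.94 and 10.04 in BT-A6sh2. It passed against BT-EV in neither line (0.20, adjusted p = 0.175, and -0.21, adjusted p = 0.126), but the lines differed by 0.41 (adjusted p = 0.00455). TRIM24, a nuclear receptor cofactor, was at -0.36 in BT-A6sh5 with separate arrays and missed the threshold (adjusted p = 0.0615), and TRIM66 was at 0.09.

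Of 10 measured partners of TRIM28 in silencing, CBX3, a heterochromatin protein of the HP1 kind, fell in BT-A6sh5 (-0.79, adjusted p = 0.00797). It made 10.0% of the list, beside 19.0% of the genes with a symbol. In BT-A6sh2 0 passed by limma, with 1 at an unadjusted p under 0.05. The 3 measured SMAD partners of TRIM33 passed in neither comparison with BT-EV. In class C-VII, TRIM2, a neuronal ligase, rose from 7.28, 7.11, 7.12 and 7.21 in BT-EV to 7.87, 7.64, 7.52 and 7.38 in BT-A6sh5 (0.43, adjusted p = 0.0433). TRIM32, whose mutation causes a limb-girdle muscular dystrophy, was at 8.65, 8.69, 8.70 and 8.68 in BT-EV, 8.33, 8.33, 8.22 and 8.19 in BT-A6sh5 and 8.68, 8.98, 9.05 and 9.21 in BT-A6sh2. It fell by 0.42 in BT-A6sh5 (adjusted p = 0.0271), and the lines differed by -0.71 (adjusted p = 0.000737). TRIM3 was at -0.32 and -0.35 and passed in neither line (adjusted p = 0.108 and 0.0772). TRIM8, first described as a partner of SOCS1, was the 1 of 7 class C-V genes that passed (14.3%, beside 19.0% of the genes with a symbol). It fell by 0.55 from 9.61, 9.82, 9.74 and 9.78 to 9.13, 9.06, 9.27 and 9.32 (adjusted p = 0.00213). TRIM37, of the centrosome, and TRIM44, which lacks a RING, were at 0.24 and -0.01, with intervals from 0.01 to 0.46 and from -0.21 to 0.20.

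In 5 genes, TRIM14, TRIM25, TRIM26, TRIM28 and TRIM41, every BT-A6sh5 array was below and every BT-A6sh2 array above all BT-EV arrays. That was 8.33% of the family, beside 1.51% of all transcript clusters and 3.14% of the genes with a symbol. TRIM33 was the 1 gene in the reverse order (1.67% of the family), which 0.996% of all transcript clusters and 1.89% of the genes with a symbol showed. TRIM5 was the 1 gene with the order of ANXA6, in which BT-A6sh5 was lowest and BT-A6sh2 between. This order held for 0.731% of all transcript clusters and 1.52% of the genes with a symbol, so that both single genes were near the latter share. The BT-A6sh2 differences of these 7 genes did not pass the test. With the more compressed BT-A6sh2 replicates 1 and 3 left out, they kept their signs and again did not pass. TRIM28 then went from 0.31 to 0.18 (adjusted p = 0.275) and TRIM5 from -0.42 to -0.23 (adjusted p = 0.385), while TRIM14 was at 0.40, TRIM25 at 0.15, TRIM26 at 0.24, TRIM41 at 0.11 and TRIM33 at -0.20. In that fit, 1 TRIM gene was higher and 0 were lower than BT-EV.

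**Figure D3:**
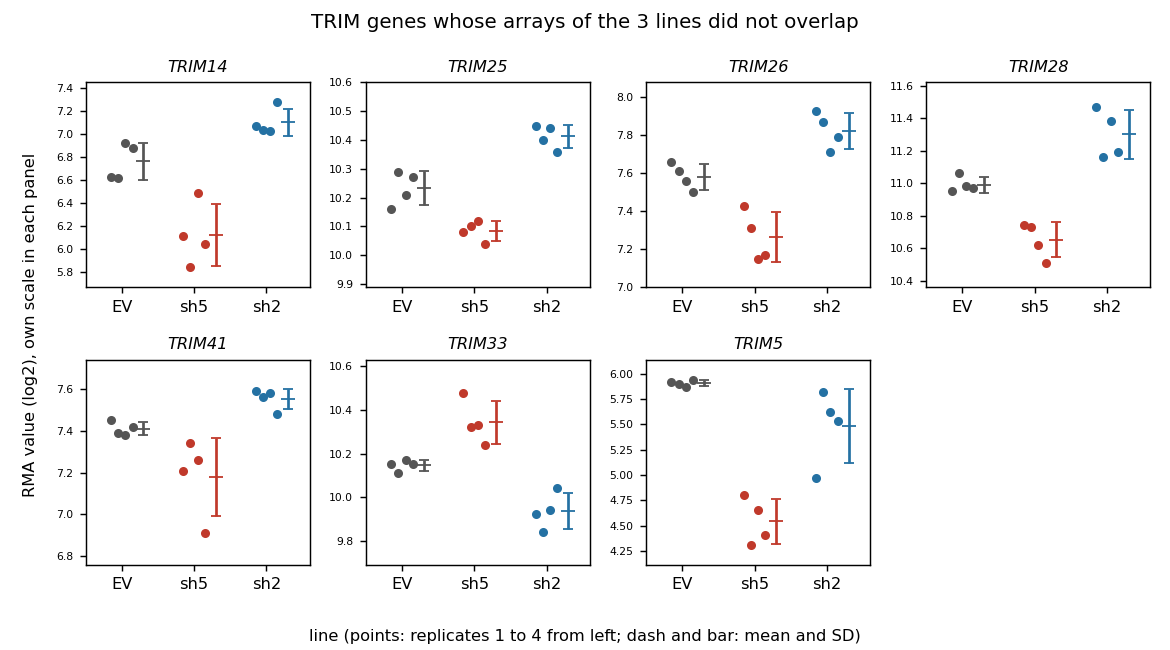
RMA values (log2, own scale in each panel) of the 7 TRIM genes whose 3 lines did not overlap, with 1 point per array and the mean and SD beside them. In TRIM14, TRIM25, TRIM26, TRIM28 and TRIM41 the lines rise in the order BT-A6sh5, BT-EV, BT-A6sh2, TRIM33 shows the reverse, and TRIM5 falls from BT-EV through BT-A6sh2 to BT-A6sh5.

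The largest change in a TRIM protein gene was in one that carries another name. Of 6 such genes measured, MID2 and PML rose in BT-A6sh5 and 0 fell by limma, these being also the 2 with an unadjusted p under 0.05. They were 33.3% of the 6, beside 19.0% of the genes with a symbol. MID2, also called TRIM1, is a microtubule-associated ligase and the close relative of MID1. It was at 4.15, 4.42, 3.88 and 4.24 in BT-EV, 7.37, 7.56, 7.23 and 7.31 in BT-A6sh5 and 4.57, 4.22, 4.12 and 4.16 in BT-A6sh2. Its BT-EV mean of 4.17 was at percentile 34.5 of all transcript clusters and was not shown to be above background. The difference was 3.19 (SE 0.139, adjusted p = 3.04e-08), at least 9.16-fold if that mean is background, against 1.53 for TRIM68, and BT-A6sh2 overlapped the control at 0.09 (interval -0.21 to 0.40). MID1, with its mean of 10.51 in BT-EV, was at 0.01 (interval -0.15 to 0.18) in BT-A6sh5. PML, or TRIM19, which builds nuclear bodies, rose from 8.35, 8.54, 8.45 and 8.51 to 9.13, 9.18, 9.23 and 9.12 (0.71, adjusted p = 0.00178). In BT-A6sh2 it was at -0.36 (adjusted p = 0.0747), and the lines differed by 1.07 (adjusted p = 7.16e-05).

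Genes that work with the TRIM ligases moved in both directions. Among 12 measured E1 and E2 enzymes of ubiquitin and SUMO, UBE2L6, the E2 of the ubiquitin-like ISG15, fell by 1.10 in BT-A6sh5 (adjusted p = 4.26e-05). SAE1, a subunit of the SUMO E1, moved both ways, falling by 0.41 with shRNA-5 (adjusted p = 0.0294) and rising by 0.46 with shRNA-2 (adjusted p = 0.0256). Of these enzymes 16.7% were called with shRNA-5 and 8.33% with shRNA-2, beside 19.0% and 9.92% of the genes with a symbol. Of 11 measured genes of nucleic acid sensing and interferon induction, STING1, CGAS and IFIH1 fell and IRF7 rose in BT-A6sh5. That was 36.4% of the list, beside 19.0% of the genes with a symbol. All but IFIH1 and IRF7 had BT-EV means above 6.75, where 33.0% of the genes with a symbol were called in BT-A6sh5. CGAS, the cytosolic DNA sensor, fell by 0.42 there (adjusted p = 0.00653) and rose by 0.36 in BT-A6sh2 (adjusted p = 0.0292), and STING1, its downstream adaptor, fell by 0.75 in BT-A6sh5 (adjusted p = 0.00285) and was at -0.04 in BT-A6sh2. RIGI, the RNA sensor on which TRIM25 and TRIM4 act, was at 0.45 and 0.16 and did not pass (adjusted p = 0.0712 and 0.487).

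The 10 measured interferon-stimulated genes included genes that rose and genes that fell. MX2, a restriction factor of HIV, fell by 1.40 in BT-A6sh5 (adjusted p = 2.52e-06), from 7.86, 7.81, 7.75 and 7.67 to 6.34, 6.33, 6.33 and 6.52, and BT-A6sh2 was at 7.82, 7.66, 7.98 and 7.63. IFI44L rose by 1.06 (adjusted p = 0.0288), and the other 8 did not pass, among them ISG15 at 0.03 and IFIT1 at -0.65 (adjusted p = 0.163). In BT-A6sh2, BST2 fell by 0.99 (adjusted p = 0.0132). Calls were thus 2 of 10 in BT-A6sh5 and 1 of 10 in BT-A6sh2, beside 19.0% and 9.92% of the genes with a symbol. The list was close to these shares in both lines. The median of the list was -0.15 in BT-A6sh5 and -0.11 in BT-A6sh2, beside 0.05 over all transcript clusters in each. Over the genes with a symbol it was 0.01 and -0.00.

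**Figure D4:**
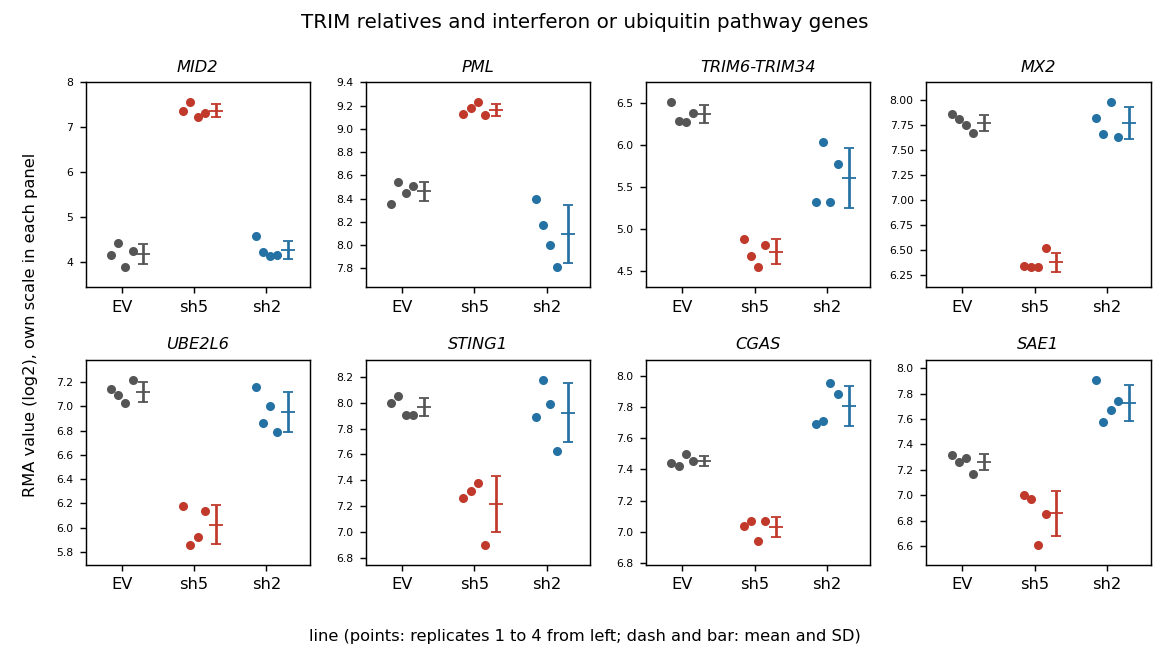
RMA values (log2, own scale in each panel) of 8 related genes, with 1 point per array in BT-EV, BT-A6sh5 and BT-A6sh2 and the mean and SD beside them. MID2 is between 7.23 and 7.56 in BT-A6sh5 and between 3.88 and 4.57 in the other lines, while CGAS and SAE1 lie below BT-EV in BT-A6sh5 and above it in BT-A6sh2.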

How the data were processed

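Values were used as deposited. The authors hybridized RNA of BT-EV, BT-A6sh5 and BT-A6sh2 cells, 4 arrays each, to Affymetrix Human Gene 2.0 ST arrays and made log2 values with Affymetrix Expression Console and RMA (background correction, quantile normalization between arrays, summary per transcript cluster), which draws the arrays to 1 distribution and would hide a shift of all genes. The submitters' notes also name affy and limma, with versions and genome build not given in the sources used here. No values were missing, 0 pairs of arrays were identical, and 0 columns lacked a sample. Precision is limited by how many arrays there are. Symbols came from the platform annotation, with 16098 of 53617 transcript clusters carrying 1 symbol, 0 several and 37519 none. Names, neighbours and promoter windows came from RefSeq tables of GRCh38.p14, and no coordinates of the array are given.

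Differences were tested, two-sided, by lmFit and eBayes of limma (3.58.1, R 4.3.3). A mean was fitted for each of the 3 lines, which left 9 residual degrees of freedom, to which the prior added 2.68. P-values were adjusted by Benjamini-Hochberg across the 53617 transcript clusters, with a threshold of 0.05. The 95% intervals used 11.7 degrees of freedom. The procedure was tested on simulated data. The members and all 25 gene lists were chosen with earlier results of these data known, so that list counts are descriptions. Named genes were the members with the largest differences past the threshold (up to 8 per comparison, with separate arrays), the 3 with the highest BT-EV signal, classes C-VI and the chromosome 11 cluster, and genes whose rows differ in call. Others named in the text, among them TRIM2, TRIM8, TRIM26 and TRIM32, were called members or members of the lists, and TRIM7, TRIM35, TRIM41 and TRIM6-TRIM34 were chosen after their values were seen. Alternatives were each pair of lines fitted alone, eBayes with trend and robust, only transcript clusters above the median, repeated quantile normalization, median centring, a replicate block, array weights, BT-A6sh2 replicates 1 and 3 left out, the mean of a gene's rows, and each array left out in turn. Python 3.11.15 with pandas 2.3.3, scipy 1.17.1 and matplotlib 3.10.9 served for tables and figures.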

Additional observations from a re-analysis of the deposited data

Results flagged for a closer look

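In 4 of 45 groups of 4 arrays examined, 1 array stood apart from the other 3 by Dixon's criterion, which chance meets in about 1 in 20 groups. They were TRIM14 in BT-A6sh2 (replicate 4 at 7.28), TRIM16 in BT-A6sh5 (replicate 1 at 5.86), TRIM27 in BT-A6sh2 (replicate 1 at 9.12) and TRIM68 in BT-A6sh2 (replicate 1 at 4.53).

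The 2 knockdown lines differed by a test of the difference itself in 12 of the 15 TRIM genes named by rule. BT-A6sh5 minus BT-A6sh2 was -0.89 for TRIM4, -0.95 for TRIM5, -0.98 for TRIM14, -0.33 for TRIM25, -0.65 for TRIM28, -0.81 for TRIM36 and -1.19 for TRIM38. It was 1.37 for TRIM9, 0.94 for TRIM16, 0.41 for TRIM33, 0.88 for TRIM62 and 1.73 for TRIM68. Because the rule named genes partly for this difference, the number says nothing of the family as a whole.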

How the results depend on the processing

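No difference that passed the test changed sign in the 15 named genes, but 6 differences that passed in no setting had both signs among them: TRIM22 in BT-A6sh5 (-0.17 to 0.14), and in BT-A6sh2 TRIM4 (-0.03 to 0.09), TRIM9 (-0.20 to 0.12), TRIM16 (-0.05 to 0.18), TRIM36 (-0.02 to 0.21) and TRIM38 (-0.08 to 0.15). With array weights, 9 TRIM genes were higher and 14 lower in BT-A6sh5, against 5 and 9. In BT-A6sh2, where the main counts were 0 and 0, 3 were higher and 1 lower with a trended robust prior, 2 higher and 3 lower among the transcript clusters above the median, 2 higher with median centring, 1 higher with array weights and 1 higher with BT-A6sh2 replicates 1 and 3 left out. With each array left out in turn, 0 to 4 were higher and 0 to 2 lower in BT-A6sh2, with 4 higher without BT-A6sh2 replicate 2, 1 higher without replicate 1, and 2 lower without replicate 4. The total in BT-A6sh5 lay between 10 and 16 in these fits and that between the knockdown lines between 21 and 23. TRIM28 in BT-A6sh5 did not pass in 10 of 21 settings, while its difference lay between -0.37 and -0.29 in all of them. Under median centring the median difference of all transcript clusters was 0.10 in BT-A6sh2 and 0.02 in BT-A6sh5, against 0.05 in each. Arrays were not paired by replicate number: deviations of arrays with the same number correlated at -0.0764 to 0.0497, and 4 of 12 arrays matched their own number best. With the replicate block, 10 TRIM genes passed in BT-A6sh5 (TRIM2, TRIM26, TRIM28 and TRIM32 did not), 0 in BT-A6sh2 and 21 between the lines. The causes were not tested. Low signal limits what can be detected in the 16 genes at or below the median, and 4 arrays from 1 population per line limit all comparisons.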
